A study of Bos taurus with 6 samples.

Results

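Genes of glucose uptake, glycolysis and the response to low oxygen were followed in 3 superstimulated and 3 non-superstimulated beef cows. The set held 37 genes, chosen by symbol: transporters of glucose and lactate, the glycolytic enzymes, the branch point at pyruvate, and the oxygen sensors with some of their targets. The array carried 58 probes for 35 of them in the annotation used here. Of these, 34 matched by the platform's own symbol and HIGD1A only through a synonym, HIGD1D. No probe was named here for GAPDH and PKM. The probe of ALDOC did not exceed the negative controls on any array in either channel, which left 34 genes on 52 probes among 12334 genes tested.

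Glycolysis splits glucose into pyruvate in the cytosol and yields ATP without oxygen, and lactate dehydrogenase lets it continue by turning pyruvate into lactate. When oxygen is short, prolyl hydroxylases stop marking the alpha subunits of hypoxia-inducible factor (HIF) for destruction, and the stabilised factor raises transcription of most glycolytic enzymes, of glucose transporters and of a set of stress genes. In the ovarian follicle the avascular granulosa layer is known to rely on glycolysis, and it supplies pyruvate and lactate to the oocyte.

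Superstimulation means that cows receive gonadotropins so that several follicles grow together. All cows were multiparous. The labels list gonadotropins as the ovarian stimulation of both channels of each array, so the reference cows are given that agent too, and what was done differently to them is not stated there. The labels name no tissue; the samples had been dissected and frozen in liquid nitrogen. Total RNA was amplified in rounds of T7 transcription before labelling with Cy3 or Cy5, a step made for very small inputs.

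Each superstimulated cow shared its arrays with the non-superstimulated cow of the same number, on 2 arrays with the dyes exchanged, which gave 6 two-colour arrays and n = 3 cow pairs. The first orientation lay on 1 slide and the exchanged orientation on another. Median probe intensity was 152 to 299 in Cy5 and 161 to 283 in Cy3, and the number of arrays limits the precision. Ratios are log2 of superstimulated over non-superstimulated by the dye fields of the arrays. An example in the design text gives the opposite dyes, which would turn every sign below and exchange the group names of the cows, so ratios are called positive or negative rather than higher or lower in a group. A level is the normalised log2 intensity of a gene's brightest probe in 1 cow, and is compared between cows for 1 gene only.

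Of 9 kept granulosa cell markers, 8 exceeded the negative controls in both channels on all arrays, as did 7305 of 12334 genes tested. Of the other kept markers, 6 of 9 for theca and stroma, 2 of 5 for leukocytes, 0 of 7 for endothelium and 0 of 5 for red cells did. Before probes were matched and filtered, the lists held 10 granulosa, 9 theca and stroma, 10 leukocyte, 9 endothelial and 8 red cell markers. Summed linear intensity of the granulosa list was 99765 to 118072 in the superstimulated cows and 87325 to 98712 in the others. That sum is weighted to its brightest probes, among them SERPINE2, INHA and INHBA, with levels of 13.55 to 15.18. The list had no common direction: mean log2 ratios were positive for 5 markers and negative for 4, with a median of 0.03. FSHR, for example, had -0.18, -0.72 and -0.67 in pairs 1, 2 and 3. The leukocyte list stood at 2682 to 3443 in 5 cows and at 6418 in non-superstimulated cow 3, where PTPRC, the pan-leukocyte phosphatase CD45, had a level of 12.53 against 11.10 to 11.51 in the other 5. PTPRC alone carried that sum. CD163, CD68, CD3D and CD3E, the other 4 kept leukocyte markers, had log2 ratios of 0.13, 0.04, -0.02 and 0.03 in pair 3. Their levels were 6.90 to 7.21 in non-superstimulated cow 3. CD163, CD68 and CD3D were dim, above the controls in 4, 4 and 2 of 6 superstimulated readings and in 4, 3 and 3 of the others. The offset draws dim ratios toward 0, and only 5 of 10 listed leukocyte markers were kept. Theca and stroma markers summed to 3468 to 9779 and 3979 to 7089. Endothelial markers summed to 961 to 995 and 946 to 1036, and red cell markers to 631 to 722 and 657 to 734. The part of these markers in the results below was not tested.

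Across the 3 cow pairs, no gene of the set passed the test, and the set had no common direction. With limma on the 3 pair values, 0 of 34 members had an adjusted p under 0.05, beside 0.00% of all genes tested, and the lowest adjusted p was 0.995. At an unadjusted p under 0.05 there was 1 member, HIGD1A, against 3.60% of all genes. The mean ratio was positive for 17 members and negative for 17, with a median of 0.01 against -0.02 over all genes. The median of the members was 0.15 on the first slide alone and -0.01 on the other. It was 0.05 without pair 1, 0.23 without pair 2 and -0.06 without pair 3. In bulk RNA, fewer cells of a type and less RNA per cell cannot be told apart.

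For most members the cow pairs disagreed. The ratio differed between pairs by limma's F test, at an adjusted p under 0.05, for 29 of 34 members (85.3%), against 51.1% of all genes. The error of that test is what remains of the differences between the arrays of a dye swap once a common dye term is removed. A gap between swapped arrays that all pairs share does not enter it. That error is technical and carries no information on other cows. Brighter genes passed it more often: among 7305 genes above the controls in both channels on all 6 arrays, 70.2% passed, and 27 of 30 such members (90.0%). The 5 members that did not pass were the transporters SLC2A4 and SLC2A8, the regulatory enzyme PFKFB3, the neuronal enolase ENO2 and the prolyl hydroxylase EGLN3. The median of the members was 0.04 in pair 1, -0.11 in pair 2 and 0.74 in pair 3, while that of all genes stayed at -0.01, -0.02 and -0.01. In absolute size the median member ratio was 0.211, 0.343 and 1.07, against 0.113, 0.169 and 0.258 for all genes.

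**Figure D1:**
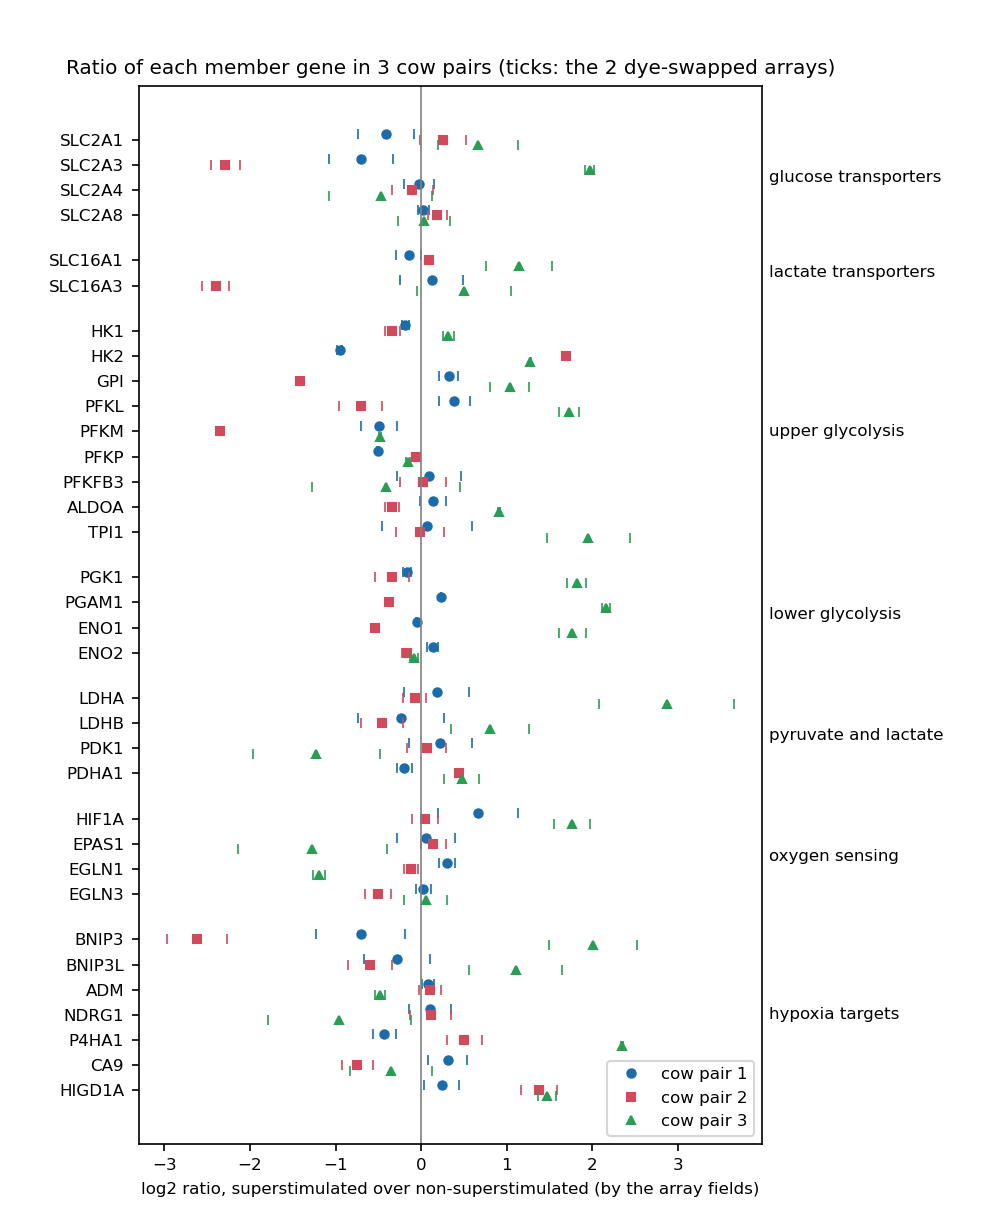
Log2 ratio of each of the 34 members (rows, by role) in the 3 cow pairs (symbols), with ticks for the 2 dye-swapped arrays of each pair. Pair 3 reaches 2.87 for LDHA, whereas pair 2 reaches -2.62 for BNIP3, and most members lie on both sides of 0.

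Single pairs were tested in the same limma fit, against the error of the swap. Pair 1 had 2 members with a positive ratio past an adjusted p of 0.05, where 3.83% of all genes had one, and 7 with a negative ratio, where 6.92% had one. Pair 2 had 4 positive members against 13.8% of genes, and 14 negative members against 21.8%. In pair 3, 21 members were positive against 27.3% of genes, and 8 were negative against 19.6%. Among the genes above the controls throughout, 13 of 30 members were negative in pair 2 against 30.5%, and 20 of 30 were positive in pair 3 against 34.4%. The authors' deposited log2 values gave 18 of 34 members that differed between pairs, against 17.3% of all genes. There, pair 1 had 0 positive and 0 negative members (0.235% and 0.478% of all genes), pair 2 had 2 and 5 (4.41% and 6.95%) and pair 3 had 16 and 5 (9.86% and 7.25%).

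Pairs 2 and 3 went opposite ways for 11 members that passed in both, or 32.4%, against 12.6% of all genes, and against 18.1% of the genes above the controls throughout, where the members were 11 of 30. All 11 were negative in pair 2 and positive in pair 3, a combination that 9.66% of all genes had. They were ALDOA, BNIP3, BNIP3L, ENO1, GPI, HK1, LDHB, PFKL, PGAM1, SLC16A3 and SLC2A3. BNIP3L, ENO1, GPI and HK1 each had a further, dimmer probe, and of these only that of BNIP3L had the same combination of signs. In pairs 2 and 3 the further probes gave -0.20 and 1.40 for BNIP3L and 0.07 and 0.29 for ENO1. They gave 0.01 and -0.10 for GPI and -0.06 and -0.01 for HK1. Another 6, CA9, HIGD1A, HK2, P4HA1, PDHA1 and PFKM, passed in both pairs with the same sign, against 11.7% of genes. Among these 6, HK2, P4HA1 and PDHA1 had further, dimmer probes. In pairs 2 and 3 those of HK2 gave -0.01 and 0.15, and 0.31 and 0.05. The further probe of P4HA1 gave 0.03 and 0.08, and that of PDHA1 gave 1.00 and 0.13. The ratio kept 1 sign in all 3 pairs for 6 members, against 23.0% of genes, and on all 6 arrays for HIGD1A, PFKM and PFKP, against 7.13%.

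**Figure D2:**
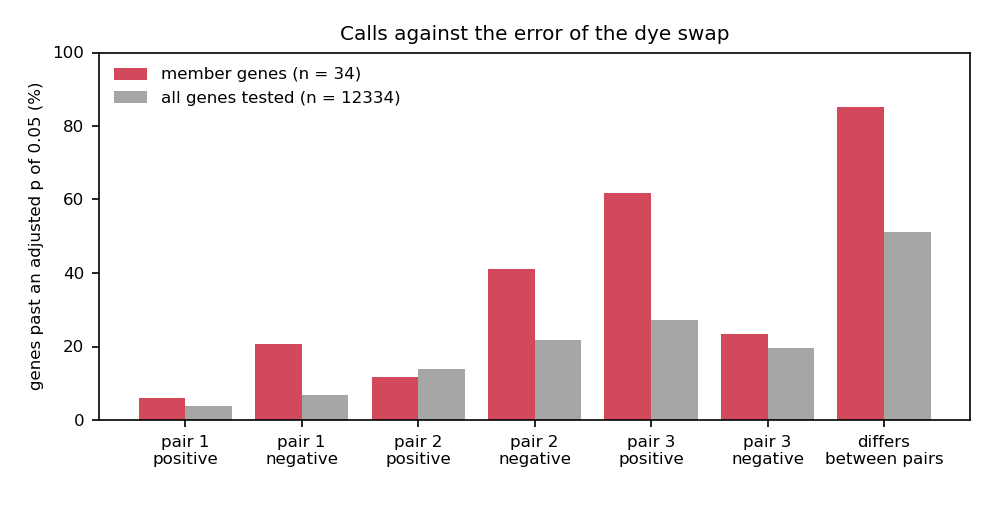
Percent of the 34 members (red) and of all 12334 genes tested (grey) past an adjusted p of 0.05 by limma, in each pair and direction and for the difference between pairs. The members stand at 41.2% against 21.8% for negative ratios in pair 2 and at 61.8% against 27.3% for positive ratios in pair 3.

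The glucose transporters differed among themselves. SLC2A3, the high-affinity transporter GLUT3, had levels of 10.78, 10.21 and 11.90 in superstimulated cows 1, 2 and 3 and of 11.49, 12.50 and 9.93 in the others. Its highest and lowest cows both belonged to the non-superstimulated group, and the groups overlapped. The log2 ratios were -0.70, -2.29 and 1.97 in pairs 1, 2 and 3, a 4.89-fold difference in pair 2 and a 3.91-fold difference the other way in pair 3 (adjusted p = 4.9e-06 for the difference between pairs by limma). SLC2A1, the widespread basal transporter GLUT1, had levels of 8.49, 9.47 and 10.41 against 8.91, 9.21 and 9.74. The superstimulated group held both the lowest and the highest cow, and the ratios were -0.42, 0.26 and 0.67. The insulin-responsive transporter SLC2A4 passed in pair 3 alone, at -0.47, although its arrays there gave 0.12 and -1.07. The intracellular transporter SLC2A8 had ratios of 0.02, 0.19 and 0.03 and was dim: it exceeded the controls in the superstimulated channel on 4 of 6 arrays and in the other on 2.

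The lactate carriers parted as well. SLC16A3, the carrier MCT4 that exports lactate from glycolytic cells, had levels of 11.00, 9.06 and 11.84 against 10.87, 11.47 and 11.33. Superstimulated cow 2 stood alone below the other 5, and the ratio of pair 2 was -2.40, or 5.29-fold, against 0.12 and 0.50 in pairs 1 and 3. The arrays of pair 3 gave -0.05 and 1.05. For SLC16A1, the carrier MCT1 that also takes lactate up, the levels were 11.19, 10.95 and 9.87 against 11.33, 10.86 and 8.73. Here both cows of pair 3 lay below the other 4, and their ratio was 1.14, against -0.14 and 0.10 in pairs 1 and 2. These values rest on 1 probe of SLC16A1. Its further, dimmer probes gave -0.01, 0.61 and 0.53, and 0.02, -0.60 and 0.37, and so had opposite signs in pair 2.

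In upper glycolysis, which spends ATP to make triose phosphates, 6 of 9 members were positive and 1 negative past the threshold in pair 3, against 27.3% and 19.6% of all genes. In pair 2 they were 1 and 5, against 13.8% and 21.8%. HK2, the inducible hexokinase that traps glucose in the cell, had levels of 7.75, 10.19 and 9.56 in the superstimulated cows and of 8.69, 8.50 and 8.29 in the others. The non-superstimulated cows lay close together, between the lowest superstimulated cow and the other two. Ratios of -0.95, 1.69 and 1.28 each passed the threshold, and the dye-swapped arrays differed by at most 0.08. These sizes rest on 1 probe. Its further, dimmer probes gave -0.15, -0.01 and 0.15, and -0.06, 0.31 and 0.05. HK1, the basal hexokinase, had the opposite sign to HK2 in pair 2, with -0.18, -0.34 and 0.32.

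GPI, the isomerase after hexokinase, had ratios of 0.32, -1.42 and 1.03. PFKL, the liver type of phosphofructokinase, the committed step, had 0.39, -0.71 and 1.73. Aldolase A, ALDOA, had 0.13, -0.34 and 0.91. These 3 enzymes thus shared the order of pair 2 below pair 1 below pair 3. TPI1, which interconverts the triose phosphates, had 0.07 and -0.02 in pairs 1 and 2 and 1.95, or 3.88-fold, in pair 3. The phosphofructokinase platelet type PFKP had -0.50, -0.06 and -0.15. PFKFB3, which makes the activator of phosphofructokinase, had 0.09, 0.02 and -0.41, although its arrays in pair 3 gave 0.45 and -1.28.

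PFKM, the muscle type of phosphofructokinase, had a negative ratio in each pair. Its levels were 9.75, 7.82 and 9.76 in the superstimulated cows and 10.25, 10.17 and 10.25 in the others, so the groups did not overlap. It was the 1 member for which this held, or 2.94%, below the 5.89% of all genes. PFKM was also the 1 member past the threshold with the same sign in all 3 pairs, or 2.94%, against 1.40% of all genes. With ratios of -0.49, -2.36 and -0.48, the mean was -1.11 ± 1.08 (SD, n = 3 pairs; adjusted p = 0.995 by limma). Superstimulated cow 2 alone carried the 5.12-fold difference of pair 2.

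In lower glycolysis, which returns ATP, 3 of 4 measured members were positive past the threshold in pair 3 and 0 negative, against 27.3% and 19.6% of all genes. PGAM1, phosphoglycerate mutase, had levels of 14.19, 13.78 and 14.63 in the superstimulated cows and of 13.96, 14.15 and 12.47 in the others. Non-superstimulated cow 3 was the lowest by 1.31, while the remaining 5 spanned 0.85. The pair ratios were 0.23, -0.37 and 2.16 (adjusted p = 9.1e-06 for the difference between pairs by limma). PGK1, phosphoglycerate kinase, had -0.16, -0.34 and 1.82, and ENO1, the common enolase, -0.05, -0.55 and 1.76. Both had their lowest level in non-superstimulated cow 3 and their highest in superstimulated cow 3. ENO2 had 0.13, -0.17 and -0.08 and was above the controls in only 3 of 6 superstimulated readings.

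At the branch point of pyruvate, LDHA, the lactate dehydrogenase subunit that favours lactate, had the largest single ratio of the set. Its levels were 15.02, 15.00 and 15.15 in the superstimulated cows and 14.84, 15.08 and 12.28 in the others. Non-superstimulated cow 3 stood apart and the other 5 lay within 0.31 of each other. Ratios were 0.18, -0.08 and 2.87, a 7.30-fold difference in pair 3, where the arrays gave 3.66 and 2.08. A second probe of LDHA gave 0.11, -0.06 and 2.91. LDHB, the subunit that favours pyruvate, had -0.23, -0.46 and 0.81.

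PDK1, the kinase that shuts pyruvate dehydrogenase and keeps carbon out of the mitochondrion, had a negative ratio in pair 3 on its brightest probe. Its levels of 11.54, 11.34 and 11.53 against 11.32, 11.27 and 12.76 put non-superstimulated cow 3 alone at the top, with ratios of 0.22, 0.06 and -1.22. That ratio rests on 1 probe, whose arrays gave -0.49 and -1.96, while 2 further probes gave -0.10 and 0.13 in pair 3. PDHA1, the subunit of pyruvate dehydrogenase that PDK1 phosphorylates, had -0.20, 0.45 and 0.47 and its lowest level in non-superstimulated cow 3. A further, dimmer probe of PDHA1 gave -0.42, 1.00 and 0.13, with -0.33 and 0.60 on the arrays of pair 3.

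**Figure D3:**
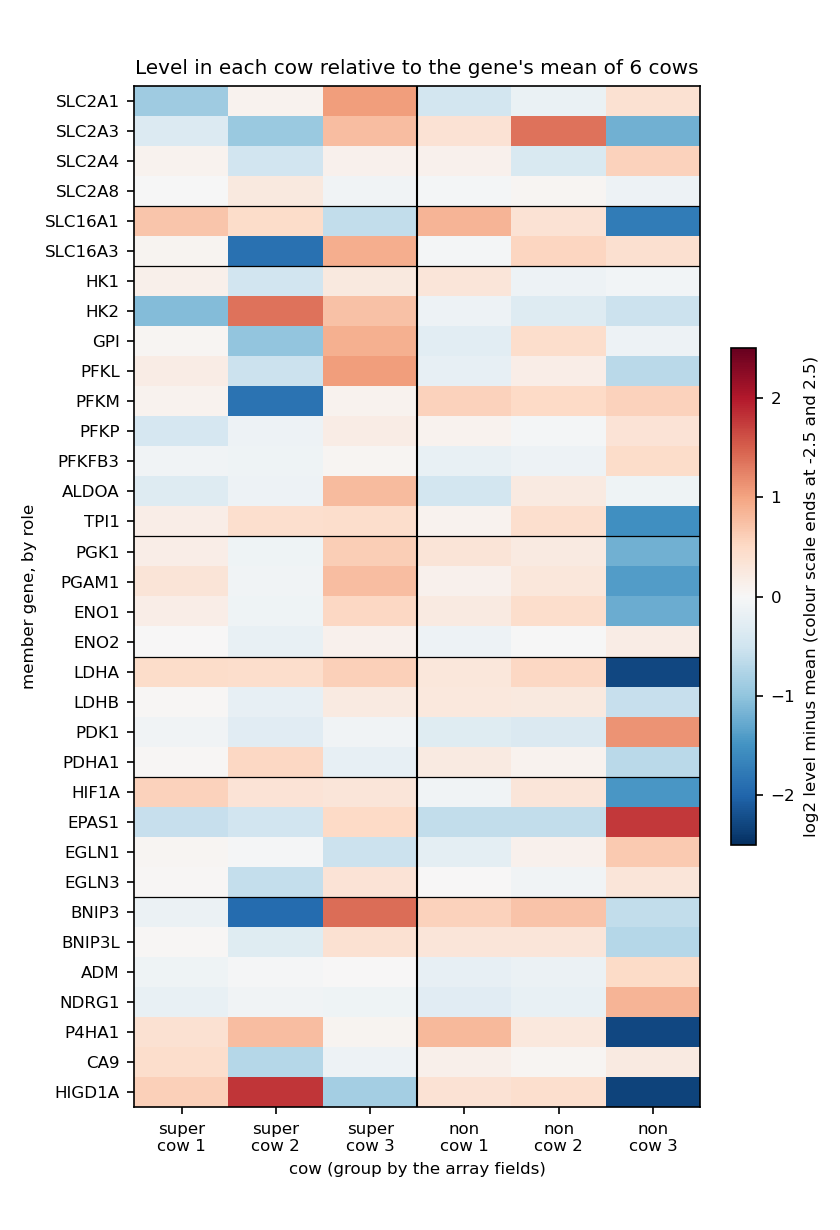
Log2 level of each of the 34 members (rows) in each of the 6 cows (columns) minus the gene's mean over the cows, on a colour scale from -2.5 (blue) to 2.5 (red). Non-superstimulated cow 3 is the lowest cow for 15 members, among them LDHA, and the highest for 9, among them EPAS1.

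Members of the oxygen-sensing step split in the same cow. HIF1A, the widely expressed alpha subunit, had levels of 15.18, 14.95 and 14.91 in the superstimulated cows and of 14.51, 14.91 and 13.15 in the others. Non-superstimulated cow 3 was again the lowest, by 1.37. The ratios were 0.66, 0.04 and 1.76, and its further 2 probes gave 1.69 and 1.31 in pair 3. EPAS1, the alpha subunit HIF2A that is prominent in endothelium, had levels of 7.92, 8.02 and 8.99 against 7.87, 7.87 and 10.26, so both cows of pair 3 lay above the other 4. Its ratio was -1.27 in pair 3, where the arrays disagreed in size with -0.40 and -2.14, and 0.05 and 0.14 in pairs 1 and 2. The prolyl hydroxylase EGLN1, the main oxygen sensor of HIF, had 0.30, -0.12 and -1.19, and its second probe gave -0.96 in pair 3. EGLN3, a hydroxylase that HIF itself induces, had 0.03, -0.51 and 0.05.

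The 7 members grouped as hypoxia targets apart from the enzymes, transporters and sensors all differed between pairs, against 51.1% of all genes. Of these 7, 5 were above the controls throughout, and 70.2% of such genes differed. In pair 3, 4 were positive and 3 negative past the threshold, against 27.3% and 19.6%. BNIP3, a mitochondrial protein of hypoxic mitophagy, had levels of 12.07, 10.29 and 13.60 in the superstimulated cows and of 12.77, 12.91 and 11.60 in the others. The superstimulated group held both the highest and the lowest cow. Ratios of -0.71, -2.62 and 2.01 passed the threshold in each pair, with 6.16-fold in pair 2 and 4.02-fold the other way in pair 3 (adjusted p = 1.8e-06 for the difference between pairs by limma). Its homologue BNIP3L had the same order, with -0.28, -0.59 and 1.11.

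P4HA1, a prolyl hydroxylase that prepares collagen for folding, had levels of 10.11, 10.49 and 9.79 against 10.54, 9.99 and 7.45. Again non-superstimulated cow 3 was apart, and the ratios were -0.43, 0.51 and 2.35, or 5.09-fold in pair 3. HIGD1A, a respiratory chain protein induced by hypoxia and listed on the platform as HIGD1D, had levels of 12.62, 13.81 and 11.17 against 12.37, 12.43 and 9.69. Each superstimulated cow lay above its own partner, yet both cows of pair 3 lay below the other 4, and the groups overlapped. The ratios of 0.24, 1.38 and 1.47 averaged 1.03 ± 0.68 (SD, n = 3 pairs; adjusted p = 0.995 by limma).

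NDRG1, a stress-induced protein, had 0.10, 0.11 and -0.96, although its arrays in pair 3 gave -0.12 and -1.80. The vasodilator peptide adrenomedullin, ADM, had 0.08, 0.11 and -0.48. A further, dimmer probe of ADM gave 0.10, 0.12 and -0.04, with -0.28 and 0.21 on the arrays of pair 3. The membrane carbonic anhydrase CA9, a frequent marker of hypoxic tissue, had 0.31, -0.75 and -0.35, with -0.83 and 0.12 on the arrays of pair 3. On the brightest probes of these 3 targets the sign in pair 3 was opposite to that of BNIP3, BNIP3L, P4HA1 and HIGD1A.

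Counted by cow, non-superstimulated cow 3 had the lowest level of the 6 for 15 members (44.1%), against 27.9% of all genes, and the highest for 9 (26.5%), against 31.3%. It had the highest PTPRC level too, while the other 4 leukocyte markers, among them the dim CD163, CD68 and CD3D, had ratios of -0.02 to 0.13 in that pair. Superstimulated cow 3 had the highest level for 13 members (38.2%), against 15.4% of genes. Superstimulated cow 2 had the lowest for 9, close to the 23.4% of all genes, among them BNIP3, GPI, PFKM and SLC16A3. Across the 34 members, which are not independent of each other, the ratios correlated at 0.12 between pairs 1 and 2, -0.16 between pairs 1 and 3 and -0.08 between pairs 2 and 3.

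Probes of the same gene did not always give the same ratio. Of 14 members with several kept probes, 10 had probes of 1 sign in the 3-pair mean, and 8, 9 and 10 in pairs 1, 2 and 3. The further probes were dimmer, with a median log2 intensity of 7.50 against 10.3 for the brightest probe of each gene, and 16 of 18 gave a smaller absolute ratio in pair 3. The median absolute ratio there was 0.143 against 1.17. A further probe of BNIP3L gave 1.40 there, and those of LDHA, HIF1A and EGLN1, given above, were also close to the brightest, whereas HK2 had 0.15 and 0.05 on its further probes and P4HA1 0.08. In 4 members a further probe had the opposite sign to the brightest in pair 3: -0.10 for GPI, -0.04 for SLC2A1, -0.01 for HK1 and 0.13 for PDK1.

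**Figure D4:**
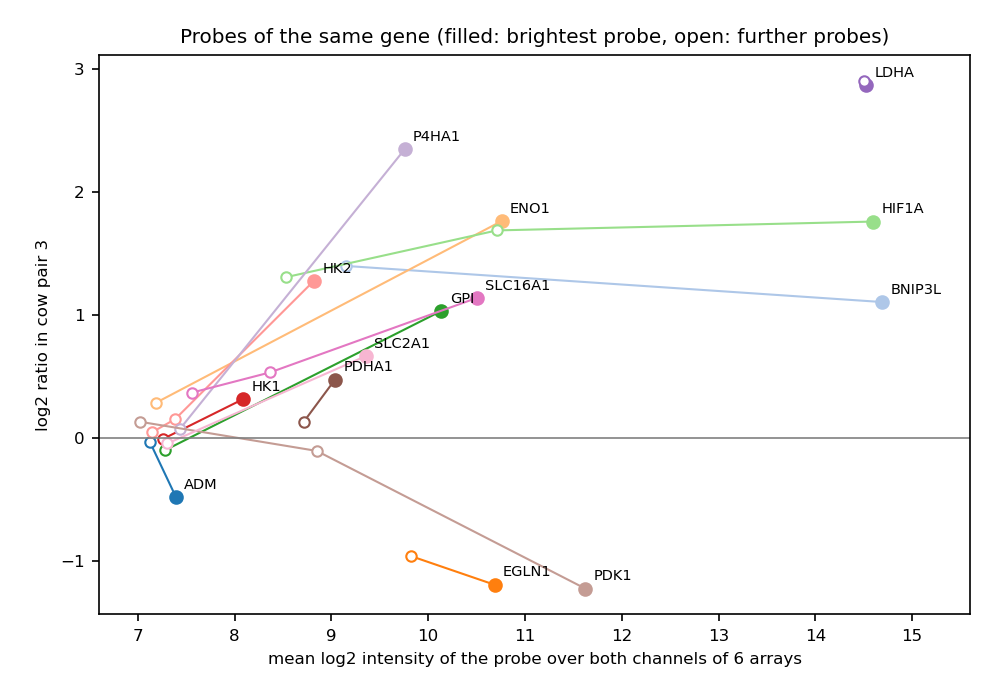
Log2 ratio in pair 3 (y axis) against mean log2 intensity over both channels of the 6 arrays (x axis) for the 14 members with several kept probes, with the brightest probe filled, further probes open and probes of 1 gene joined. Both LDHA probes lie near 2.9, whereas further probes at intensities of 7.02 to 7.56 lie between -0.10 and 0.37.

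At the bright end, 4 members had readings over 80% of the brightest probe of their array: LDHA in 7 of 12 readings, HIF1A in 7, BNIP3L in 6 and LDHB in 5. Whether the scanner compressed their ratios was not tested. The arrays of a swap gave ratios of the same sign for 21 members in pair 1, 24 in pair 2 and 28 in pair 3, and their median difference was 0.36, 0.31 and 0.44.

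Related genes outside the set were counted from 4 lists, and 0 genes of any list passed over the 3 pairs by limma at an adjusted p of 0.05; at an unadjusted p under 0.05 there were 3 of 74 (4.05%), BPGM, CITED2 and PRPS1, near the 3.60% of all genes. Of 24 other genes of glycolysis and gluconeogenesis, 9 (37.5%) differed between pairs, below the 51.1% of all genes. Only 12 of these 24 were above the controls throughout, and brighter genes passed that test more often. The list medians were -0.01, -0.01 and -0.03 in pairs 1, 2 and 3. BPGM, which makes the bisphosphoglycerate that red cells use to release oxygen, had -0.24, -1.71 and -1.28. Its levels of 9.10, 7.91 and 9.09 against 9.34, 9.62 and 10.37 did not overlap between groups, which held for 5.89% of all genes. PFKFB4, a relative of PFKFB3, had -0.17, -0.20 and -0.41. FBP1, the fructose bisphosphatase that runs against phosphofructokinase, had levels of 7.78, 12.32 and 8.28 against 7.53, 7.86 and 7.16, and ratios of 0.25, 4.46 and 1.12. Superstimulated cow 2, where PFKM was lowest, thus stood alone at the top for FBP1.

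Of 31 other genes of the HIF pathway, 20 (64.5%) differed between pairs, against 51.1%, and 20 of the 31 were above the controls throughout. In pair 3, 14 (45.2%) were positive past the threshold, against 27.3%, and 6 (19.4%) negative, against 19.6%. CITED2, which competes with HIF for its coactivator, had levels of 10.43, 8.15 and 9.88 against 11.44, 11.33 and 11.03. The groups did not overlap, which held for 5.89% of all genes. Ratios of -1.01, -3.17 and -1.15 each passed the threshold within their pair, where 1.40% of all genes passed in all 3 pairs with the same sign. The mean was -1.78 ± 1.21 (SD, n = 3 pairs, adjusted p = 0.995 by limma). The chemokine receptor CXCR4 had 0.24, 0.30 and 0.13, and the hydroxylase EGLN2 had -0.13, -0.43 and -1.17.

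Around pyruvate dehydrogenase, 9 of 10 genes differed between pairs, against 51.1%, with list medians of 0.05, -0.22 and 0.72. All 10 were above the controls throughout, and 70.2% of such genes differed between pairs. MPC1, a subunit of the carrier that brings pyruvate into the mitochondrion, had levels of 13.13, 15.26 and 14.53 against 13.03, 13.24 and 10.96. Superstimulated cow 2 was the highest and non-superstimulated cow 3 the lowest, and the ratios were 0.10, 2.01 and 3.57. The dehydrogenase subunit PDHB had 0.21, -0.03 and 0.54, and DLAT, which carries the acetyl group, -0.06, -1.51 and -0.09. In the pentose phosphate pathway 5 of 9 genes (55.6%) differed between pairs, near the 51.1% of all genes, and 8 of the 9 were above the controls throughout. PRPS1, which makes the phosphoribosyl donor of nucleotide synthesis, had 0.18, 1.15 and 1.07, the transketolase TKT -0.16, -1.52 and 0.09, and the isomerase RPIA -0.05, 0.24 and 0.16.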

How the data were processed

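RNA of 3 superstimulated and 3 non-superstimulated cows, as 3 pairs with a dye swap each, was measured on 6 arrays. The deposited scanner files hold foreground and background intensity of each spot in 2 colours, not background-corrected, per the file headers. A deposited table of log2 values, with normalization not given in the sources used here, served as an alternative. It correlated at 0.739 to 0.868 with the same array's scanner log2 ratios, as red over green, and at most at 0.335 with another array's. Its column medians lay between -0.035 and -0.00431.

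Foreground means were corrected with normexp (offset 50) and loess within each array, with control spots at weight 0, in R 4.3.3 with limma 3.58.1. Of 45220 spots, 42 marked as ignored were left out. Probes were kept if raw foreground exceeded the 95th percentile of 756 negative controls in at least 1 channel on at least 3 arrays (31957 of 43753 probes). The brightest probe stood for a gene.

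Arrays of a swap were turned and averaged, and 3 pair values were tested against 0 with lmFit and eBayes (Benjamini-Hochberg over all genes). A second limma model of the 6 arrays, with dye and pair as terms, gave the tests between and within pairs, with 2 residual degrees of freedom. Levels per cow used Aquantile on separate channels. The steps were tested on simulated data. Cows within a group are separate animals by the design text. Nothing there ties cows of 1 number together, so the pair is the hybridisation.

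All 37 members were named, and of each other list the 3 genes with the smallest p. Members and lists were chosen with earlier results of these data known. Of the members, 34 matched the platform's symbols and HIGD1A through a synonym in a RefSeq table (ARS-UCD2.0). No promoter or protein sequences and no coordinates were used here.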

Additional observations from a re-analysis of the deposited data

How the results depend on the processing

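The count of 0 members past an adjusted p of 0.05 over the 3 pairs held under each alternative run: another normexp offset, no loess, the deposited values, the mean of all probes, no filter, each slide alone, each pair left out (0 to 0 members and genes), an intensity trend, the unpaired fit and both fits of 6 arrays. With the cow pair as a replicate block, 0 genes and 0 members passed, and without it, with 6 arrays taken as independent, 1 gene and 0 members did. HIGD1A had the lowest adjusted p of a member by limma in both fits, 0.655 with the replicate block and 0.267 without. The median of the members ranged from -0.065 to 0.23 without a pair. Refitted without a pair, an alternative chosen after seeing the data as was the comparison with brighter genes, 21 to 28 members and 4718 to 5195 genes differed between pairs. Without loess, 29 members and 6353 genes differed between pairs. Members past the threshold were 0 positive and 7 negative in pair 1, 3 and 16 in pair 2, and 21 and 5 in pair 3. The shares of all genes in single pairs are not given for that setting, so these counts cannot be set against them. In the deposited values 2134 genes and 18 members differed between pairs; 0 members were positive and 0 negative in pair 1, 2 and 5 in pair 2, and 5 were negative in pair 3. The cause was not tested.

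Of 238 values of single members under other settings, 219 kept their sign and 19 did not, as did 80 and 22 of 102 with a pair left out. On the first slide alone the mean ratio turned to -0.19 for SLC2A1, 0.14 for SLC2A4, -0.077 for SLC2A8, 0.11 for GPI, 0.40 for PFKFB3, 0.015 for ENO2, 0.13 for PDK1, 0.092 for EPAS1 and 0.19 for NDRG1. On the other slide it turned to -0.36 for LDHB, 0.022 for BNIP3, -0.32 for BNIP3L and 0.033 for CA9. The deposited values gave 0.20 for SLC2A4, -0.0024 for SLC2A8, 0.16 for GPI and -0.26 for LDHB, and GPI had 0.0019 without loess and 0.019 as the mean of its probes. Members that turned with a pair left out ranged from -0.079 to 0.46 (SLC2A1), -1.50 to 0.63 (SLC2A3), -0.024 to 0.62 (SLC16A1), -1.14 to 0.31 (SLC16A3), -0.26 to 0.067 (HK1), -0.55 to 0.68 (GPI), -0.16 to 1.06 (PFKL), -0.20 to 0.056 (PFKFB3), -0.11 to 0.52 (ALDOA), -0.25 to 0.83 (PGK1), -0.069 to 1.20 (PGAM1), -0.30 to 0.86 (ENO1), -0.13 to 0.026 (ENO2), -0.35 to 0.29 (LDHB), -0.58 to 0.14 (PDK1), -0.61 to 0.098 (EPAS1), -0.66 to 0.090 (EGLN1), -0.24 to 0.040 (EGLN3), -1.66 to 0.65 (BNIP3), -0.44 to 0.41 (BNIP3L), -0.20 to 0.094 (ADM) and -0.43 to 0.11 (NDRG1). Dim probes, such as those of SLC2A8, ENO2 and ADM, bound what could be measured, since the offset draws dim ratios toward 0. Those of SLC2A8 and ENO2 did not exceed the negative controls in every reading, while the brightest probe of ADM did.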
